A study of Mus musculus with 8 samples.

Results

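Of 12074 RNA sites bound by Flag-tagged MBD5 or MBD6 in mouse embryonic stem cells, 3566 (29.5%) held a peak in all 4 CLIP libraries and are called common sites here. A site was made by merging overlapping peaks on the same strand, and common sites were chosen by the presence of at least 1 peak from each library, so that presence is not a result. CLIP-seq crosslinks proteins to RNA with ultraviolet light, precipitates the protein and sequences the RNA fragments that come with it. The cells were wild-type mouse embryonic stem cells that stably overexpressed the coding sequence of human MBD5 or human MBD6 with a 3XFlag tag from a vector delivered by lentivirus. Both lines were kept under hygromycin in medium with LIF, CHIR99021 and PD0325901, both still had their own Mbd5 and Mbd6 genes, and the labels do not say whether a line was a single clone. The groups used were Flag-MBD5 CLIP and Flag-MBD6 CLIP with 2 libraries each. The characteristics in the labels and the study's methods give a Flag antibody, while the extraction protocol gives an antibody against MBD6. Inputs were not analysed here as samples of their own.

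MBD5 and MBD6 carry a domain related to the methyl-CpG-binding domain, and both associate with the PR-DUB complex, in which the deubiquitinase BAP1 removes ubiquitin from histone H2A. The study examined MBD6 as a protein that binds 5-methylcytosine in RNA on chromatin. A binding site in a CLIP experiment marks where a crosslinked fragment began and how many fragments piled up, and abundant RNA yields more fragments than scarce RNA. Transcript levels were not measured in these libraries.

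The libraries yielded 5362 and 5388 peaks with MBD5 against 9218 and 9587 with MBD6. Read numbers estimated from the peak lists were 478790 and 500143 against 983918 and 1111742, a depth ratio of 2.14, so that protein and depth cannot be told apart. Common sites took 68.3% and 67.8% of the Flag-MBD5 peaks and 39.3% and 37.6% of the Flag-MBD6 peaks. At strong common sites the libraries of 1 protein were closer to each other than sampling noise. These were sites with at least 60 reads at the summit in both libraries of the other protein. The chi-square per degree of freedom was 0.518 over 683 sites in the case of MBD5 and 0.431 over 274 sites in that of MBD6, where independent sampling would give 1. The 4 pairs of libraries of different proteins gave 3.72 to 4.39 over 464 sites. For this reason each protein counts as 1 sample, its library values are printed without an SD, and the proteins were not compared by a test. Of 12 embryonic stem cell markers 10 had a site and 3 had a common site, whereas none of 8 feeder fibroblast markers and none of 8 markers of differentiated lineages had a site of any kind.

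The sequences at the start of strongly bound coding sites varied. Most of the lines below hold stretches of A and G, many of which encode lysine and glutamate, but the Trap1a line holds no run of at least 6. Purines made up 51.7% of the Hsp90b1 line and 53.3% of the Dst line of exon 57, against 70.0% of the Myh9 line of exon 26. RNase T1, which trimmed the RNA, cuts after G. The lines below give the first 60 nt of the transcript from the 5′ end of the site, and capitals mark runs of at least 6 A or G. The first 3 lines are coding sites among the 8 with the highest fold enrichment whose first 60 nt lay in the coding sequence of their transcript, and the others are the 4 strongest such sites each of Dst and Myh9, which are among the genes with the most common sites. Sequences are from GENCODE M21 transcripts.
Hsp90b1 exon 6: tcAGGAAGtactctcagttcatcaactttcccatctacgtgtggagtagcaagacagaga
Trap1a exon 1: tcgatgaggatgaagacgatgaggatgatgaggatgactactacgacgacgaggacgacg
Pkm exon 5: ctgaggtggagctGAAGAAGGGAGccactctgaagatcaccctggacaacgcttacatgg
Dst exon 57: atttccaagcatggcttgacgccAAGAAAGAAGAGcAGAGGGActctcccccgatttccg
Dst exon 70: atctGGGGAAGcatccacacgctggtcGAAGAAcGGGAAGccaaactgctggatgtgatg
Dst exon 76: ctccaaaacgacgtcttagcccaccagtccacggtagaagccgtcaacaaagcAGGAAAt
Dst exon 78: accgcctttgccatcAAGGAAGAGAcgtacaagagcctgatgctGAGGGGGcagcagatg
Myh9 exon 22: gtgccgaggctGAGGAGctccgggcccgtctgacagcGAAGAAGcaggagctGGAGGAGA
Myh9 exon 26: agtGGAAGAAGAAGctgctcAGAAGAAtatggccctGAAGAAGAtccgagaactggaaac
Myh9 exon 34: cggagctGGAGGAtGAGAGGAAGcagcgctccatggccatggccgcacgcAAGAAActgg
Myh9 exon 39: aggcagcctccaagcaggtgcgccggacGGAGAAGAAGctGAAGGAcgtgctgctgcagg

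These stretches lie in coding sequence of GRCm38 (mm10). The Hsp90b1 stretch joins exons 6 and 7 of the minus strand within chr10:86698432-86698636, and all others are unbroken in the genome. The Trap1a stretch lies at chrX:139334198-139334257 on the plus strand and the Pkm stretch at chr9:59668923-59668982 on the plus strand. The Dst stretches begin on the plus strand of chromosome 1 at 34227841, 34263296, 34270831 and 34274177, and the Myh9 stretches begin on the minus strand of chromosome 15 at 77775225, 77772036, 77766859 and 77763322. In the Hsp90b1 stretch 31 of 60 bases were purines and 3 of 19 whole codons encoded lysine or glutamate, against 42 of 60 and 8 of 19 in the Myh9 stretch of exon 26. Over the 22 common sites of Dst that could be read, the share of purines ran from 45.0% to 71.7% with a median of 60.8%, and 17 held a purine run. Over 13 such sites of Myh9 it ran from 41.7% to 70.0% with a median of 65.0%, and all 13 held one. For comparison, A made up 28.7% and G 26.1% of all bases in the coding sequences with common sites. How often any 60 nt of coding sequence hold a purine run was not computed, so the run counts have no background.

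Across coding common sites the encoded peptides were rich in charged residues. In the first 30 nt of the 2538 coding common sites whose window lay inside the coding sequence, lysine made up 12.6% of codons (95% Wilson interval 12.2% to 13.03%) against 7.29% in the whole coding sequences of the same transcripts. Glutamate made up 14.8% (14.3% to 15.3%) against 8.80%, aspartate 7.95% (7.62% to 8.30%) against 5.52%, and arginine 7.15% (6.83% to 7.49%) against 5.87%. Several hydrophobic and small residues were rarer, with valine at 3.24% against 5.73%, phenylalanine at 1.62% against 2.96%, leucine at 6.87% against 9.01% and cysteine at 0.640% against 1.60%. Others were not. Isoleucine was at 4.13% against 4.13%, and threonine (5.72% against 5.25%) and asparagine (4.33% against 3.63%) were more frequent. Wilson intervals here cover counting error only, and codons of neighbouring sites in 1 gene are not independent.

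**Figure D1:**
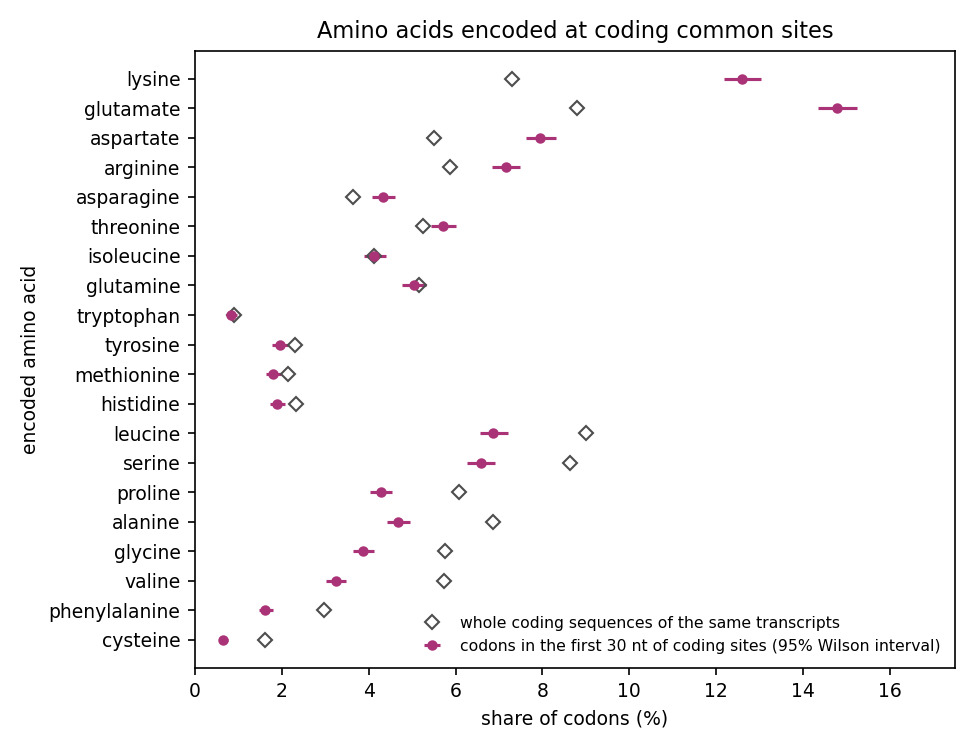
Share of codons for each amino acid in the first 30 nt of 2538 coding common sites (filled circles, bars show the 95% Wilson interval) and in the whole coding sequences of the same transcripts (open diamonds), in percent. Lysine (12.6% against 7.29%) and glutamate (14.8% against 8.80%) stand to the right of their diamonds, and cysteine, phenylalanine and valine stand to the left.

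Lysine and glutamate together made up 27.4% of codons at common sites (26.8% to 28.0%) and 16.1% of whole coding sequences. Windows that followed every G of the same coding sequences held 16.5%. At 310 sites (12.2%) at least 50% of the codons encoded these residues, and at 261 sites (10.3%) none did. The surplus was also seen outside common sites. Sites with peaks in 3, 2 or 1 of the libraries gave 27.9%, 28.2% and 25.1%, against 15.9%, 15.5% and 14.8% of their coding sequences.

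The base composition differed from the coding sequences too. In these windows A was at 37.2% (36.8% to 37.5%) and T at 15.4%, whereas windows after every G of the same coding sequences held 28.5% and 20.5%. A G came directly before 1989 of 2538 sites (78.4%, 76.7% to 79.9%) and a C before 430 sites (16.9%), while G makes up 26.1% of these coding sequences. The 6-mers found in most windows were AGAAGA at 484 sites, GAAGAA at 471 sites and AAGAAG at 432 sites. They were found by counting and overlap one another as frames of the same repeat, and only the sense strand was searched, as the sites are RNA. At least 1 of the 3 lay in 774 windows (30.5%, 28.7% to 32.3%), against 8.48% of all windows of this length in the same coding sequences. As the 3 were picked for being frequent in these same windows, some excess is built in, and the interval does not cover that choice. A run of at least 6 purines lay in 67.2% of windows (65.4% to 69.0%) against 41.9%. Both of these backgrounds took all windows of the coding sequences, not only those after a G. The 5′ base of the site fell at codon positions 1, 2 and 3 in 35.3%, 41.6% and 23.0% of sites, and positions after a G in the same coding sequences divide as 36.01%, 41.7% and 22.3%. Base composition was close to this outside common sites too. In the sites of 3, 2 and 1 libraries A was at 38.0%, 38.8% and 36.2% and T at 15.1%, 15.4% and 16.0%. A G came directly before 78.4%, 75.8% and 75.9% of them.

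Common sites were compact. The median site was 213 bp wide, with a range of 150 to 2664 bp, where 150 bp is the length to which the authors extended reads. Exactly 1 peak from each library made up 3426 sites. The 4 libraries placed the 5′ end of the site within a median of 14 nt of each other, with quartiles of 6 and 39 nt, and within 10 nt at 1417 sites (39.7%, 38.1% to 41.4%).

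Fold enrichment, the deposited ratio of summit signal to local background, had medians at common sites of 12.3 and 12.6 for the MBD5 libraries against 17.1 and 17.6 for the MBD6 libraries. The peaks outside common sites had medians of 7.98, 7.94, 9.19 and 9.42 in the same order. The rule for common sites required a peak in every library, which favours strong peaks, and the strongest peak stood for each library there. Differences in fold enrichment from peaks outside common sites are therefore not a result. The median number of summit reads was 20 in each Flag-MBD5 library, against 35 and 38 with Flag-MBD6. At the edge of the rule, the common sites with the lowest −log10 q in any library lay in Xrn2, a nuclear exoribonuclease (fold enrichment 4.62 and 7.62 with MBD5 against 10.5 and 8.87 with MBD6) and in Taf1d, an RNA polymerase I factor (4.39 and 3.33 against 11.8 and 14.9). Just outside it lay 1664 sites found in 3 libraries, of which 734 and 685 lacked only the first or second Flag-MBD5 library and 137 and 108 only the first or second Flag-MBD6 library. The medians of the fold enrichment of their peaks were 8.47 and 8.39 with MBD5 against 11.2 and 11.6 with MBD6.

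**Figure D2:**
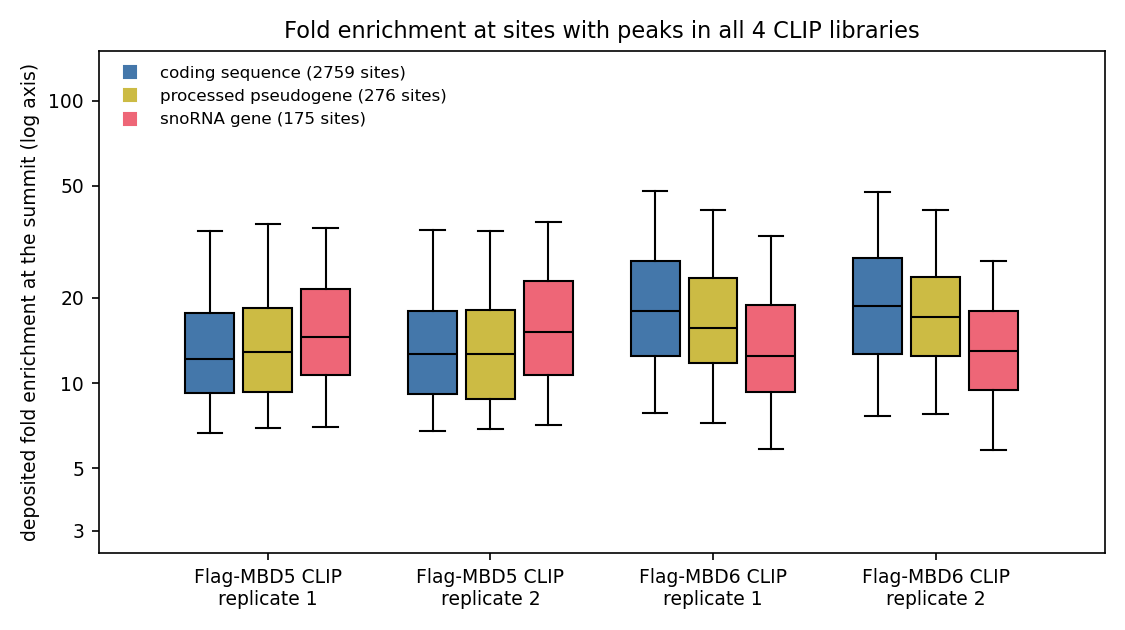
Deposited fold enrichment (log axis) at common sites in each CLIP library, for sites in coding sequence, processed pseudogenes and snoRNA genes. Boxes show the quartiles and median, whiskers the 5th and 95th percentiles. Coding sites had higher medians in the Flag-MBD6 libraries, and snoRNA sites had higher medians in the Flag-MBD5 libraries (14.6 and 15.1 against 12.5 and 12.98).

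The 8 strongest common sites included 3 in HSP90 chaperone transcripts. A site in exon 17 of 18 of Hsp90b1, which encodes the HSP90 of the endoplasmic reticulum, had the best mean rank (chr10:86691502-86691753, minus strand). Its fold enrichment reached 103 and 104 with MBD5 against 125 and 108 with MBD6, from 138, 146, 190 and 195 reads at the summit. A second site in exon 6 of the same gene had 94.1 and 84.6 against 101 and 109. Both sites of this transcript were thus among the strongest in every library.

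The X-linked Trap1a, known as a tumour antigen gene, ranked high with 147 and 60.5 with MBD5 against 123.2 and 91.2 with MBD6. Its summit reads were 244 and 241 against 304 and 322, so the spread of the Flag-MBD5 values came with a background rate of 0.664 in the first library and 3.00 in the second. The site in exon 5 of Pkm, which encodes pyruvate kinase, had 80.2 and 77.4 against 89.7 and 79.5.

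The site in exon 17 of Eif3a, a subunit of the initiation factor eIF3, had 64.6 and 66.4 against 89.9 and 92.3. A site in Hsp90aa1, the inducible cytosolic HSP90, had 99.8 and 76.6 against 77.1 and 80.6. The base used to place that site fell in an intron, although 321 of its 441 bp overlapped exons. The processed pseudogene Gm9892 (chr8:52196058-52197053) had 98.5 and 109 against 104 and 105. The authors' alignment kept reads with up to 10 matching places and reported 1 of them, so reads on a pseudogene can stem from its parent gene or from another copy.

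By position 15 nt inside the 5′ end, 2759 common sites (77.4%, 76.0% to 78.7%) lay in coding sequence, 621 (17.4%, 16.2% to 18.7%) in exons of non-coding genes or transcripts, 46 (1.29%) in 5′ UTRs, 27 (0.757%) in 3′ UTRs, 39 (1.09%) in introns and 74 (2.08%) outside genes. This position was used since reads were extended without splicing and the middle of a site often lies in the next intron. At the midpoint the coding share was 55.6% and at the strongest summit 59.1%. The authors' alignment kept only reads with up to 10 matching places, and repeats were not annotated here. RNA of repeats with more copies can thus be missing from these shares. Sites of 3, 2 and 1 libraries had coding shares of 83.8%, 79.9% and 76.4% and non-coding exon shares of 11.2% (9.81% to 12.8%), 9.33% (8.36% to 10.4%) and 10.1% (9.19% to 11.1%). Common sites thus held a higher share of non-coding exons than the other 3 groups. The intervals cover counting error only and are not a test.

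Small nuclear and nucleolar RNAs made up part of that share. Genes of snoRNAs, which guide the modification of other RNAs, held 175 common sites (4.91%, 4.25% to 5.67%), against 1.56%, 0.799% and 0.511% of the sites of 3, 2 and 1 libraries. Of 245 snoRNA genes with any site 175 (71.4%) held a common site, whereas 39.2% of genes of any type with a site did. Among them were 56 of 64 genes named Snord, which are box C/D snoRNAs, and 18 of 26 named Snora, which are box H/ACA snoRNAs. The share was 15 of 17 for scaRNAs, which guide modification in Cajal bodies, 40 of 74 for snRNAs of the spliceosome and 39 of 66 for genes of ribosomal RNA, of which 35 were copies of 5S rRNA. Copies of snRNA and 5S rRNA are near-identical, so the copy a read was placed on is uncertain. Processed pseudogenes held 276 common sites (7.74%), against 7.03%, 5.62% and 6.999% of the sites of 3, 2 and 1 libraries. Of 688 with any site 256 held a common site (37.2%). Among all pseudogenes with a common site 17 had symbols that start with Rpl and 13 with Rps, after ribosomal protein genes.

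The 3492 common sites inside genes fell on 2081 genes. Of 4070 protein-coding genes with any site 1502 (36.9%) held a common site. Most genes held 1 common site (1484), and 597 (28.7%, 26.8% to 30.7%) held at least 2. Among the protein-coding genes 572 (38.1%) held at least 2. The genes with several sites held most of the sites, with 2008 common sites (56.3%, 54.7% to 57.9%) in the 597 genes, 770 sites (21.6%) in the 105 genes with at least 5 sites and 260 sites (7.29%) in the 20 genes with at least 10.

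**Figure D3:**
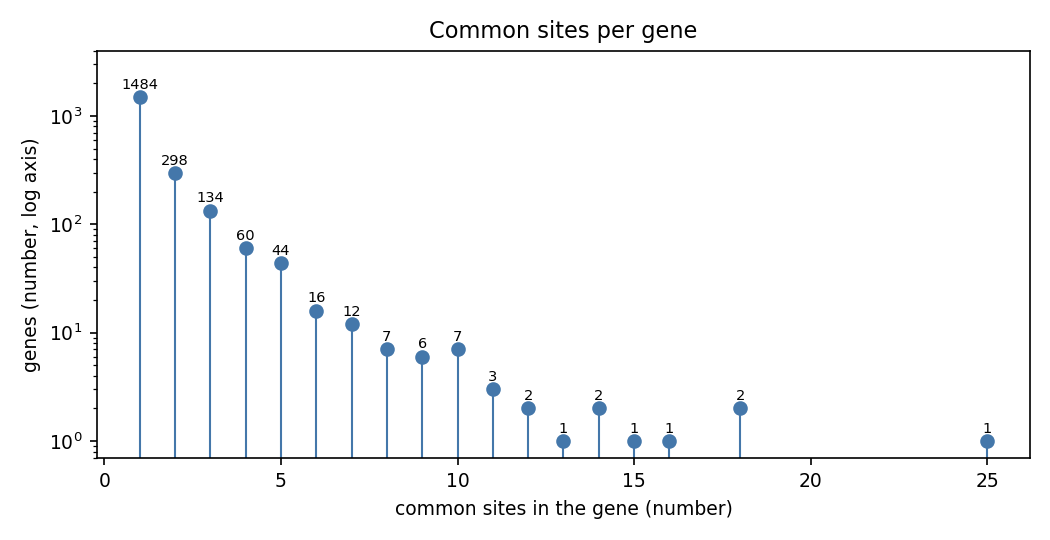
Number of genes (log axis) by the number of common sites they held. Of 2081 genes, 1484 held 1 site, and the highest number was 25, in Dst.

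Genes with more sites had longer coding sequences. The median coding length was 1756.5 nt for protein-coding genes with 1 common site, 2304 nt for those with 2 to 4, 4536 nt for those with at least 5 and 7422 nt for those with at least 10. It was 1725 nt for protein-coding genes that had sites but no common site, and 1173 nt for all annotated protein-coding genes. A longer transcript offers more places for a site, and length and the number of sites were not separated here.

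Dst, which encodes the cytoskeletal linker dystonin, held 25 common sites among its 55 sites of any kind. On the spliced transcript 24 of them lay in 23 exons and ran from 11.8% to 95.1% of a coding sequence of 22179 nt. Fold enrichment over its sites and libraries ran from 6.74 to 65.4. The closest sites on its spliced transcript were 62 nt apart and the farthest neighbours 3172 nt.

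Myh9, which encodes the heavy chain of non-muscle myosin IIA, held 18 common sites of 23, in 18 different exons, from 3.32% to 93.6% of a coding sequence of 5880 nt. Tpr, a coiled-coil protein of the nuclear pore basket, also held 18, of 24, in 18 exons and with a median distance of 203 nt between neighbours. In Tpr the sites ran from 7.86% to 83.8% of the coding sequence. Both genes carried 2.42 common sites per kb of spliced transcript, against 1.03 per kb in Dst.

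Dync1h1, the heavy chain of cytoplasmic dynein, held 16 common sites and Sptan1, which encodes a non-erythroid alpha spectrin, held 15. Chd4, a remodelling ATPase of the NuRD complex, held 14 of its 17 sites, and Macf1, a linker of actin and microtubules, held 14 of 37. Sptbn1, which encodes a beta spectrin, held 13, Fat1, a giant cadherin, 12, Srrm2, a splicing coactivator with RS domains, 12, and Eif3a and the ubiquitin ligase gene Huwe1 11 each. In Srrm2 6 of the 12 sites shared 1 exon. In Eif3a all 11 lay in the part from 40.8% to 95.1% of the coding sequence, with none nearer to the start, and fold enrichment there ran from 12.7 to 118. Each of these 12 genes had all its common sites on the spliced transcript used for positions, other than 1 site of Dst.

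**Figure D4:**
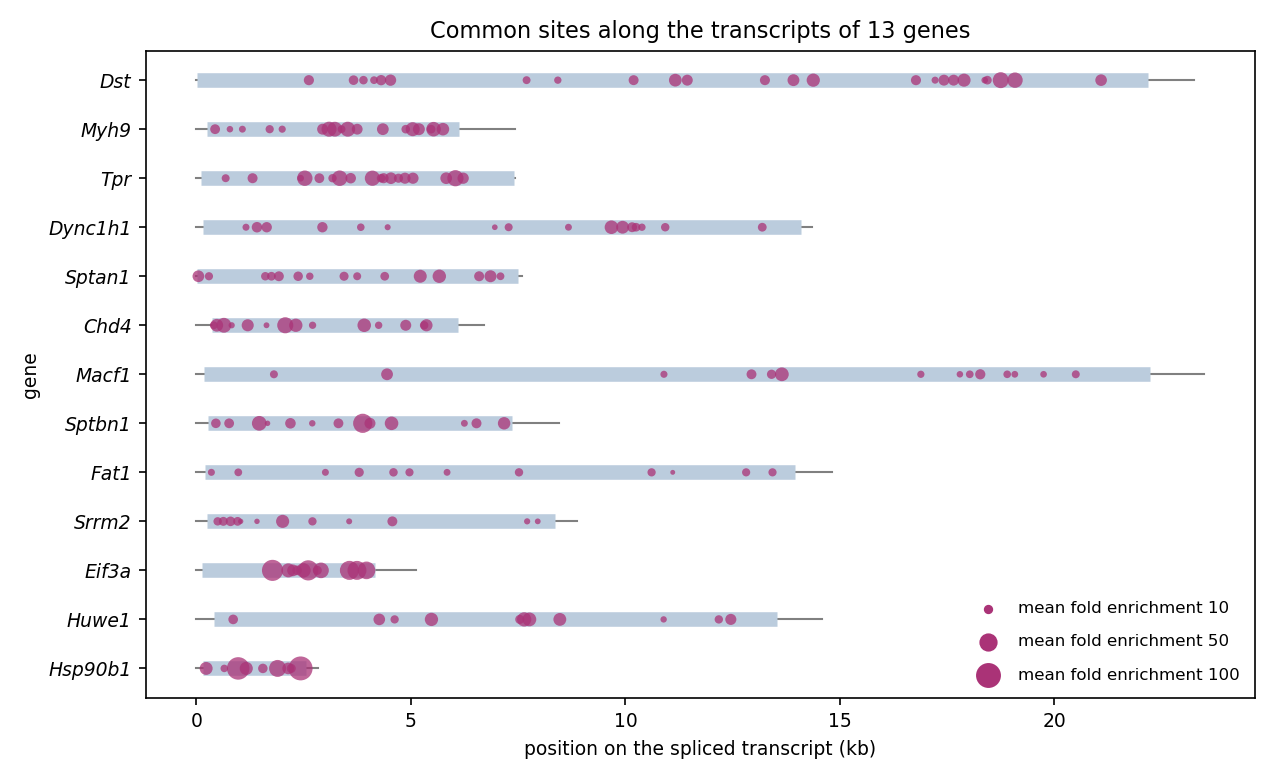
Common sites (circles, area in proportion to the mean fold enrichment of the 4 libraries) along the spliced transcripts of the 12 genes with the most sites and of Hsp90b1, in kb from the transcript start. The thick bar is the coding sequence. Sites of Dst, Dync1h1 and Huwe1 spread over most of the coding sequence, those of Eif3a lay in its 3′ part, and Hsp90b1 carried 9 sites on 2825 nt.

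Among genes with at least 4 common sites, the densest per length was Hsp90b1 with 9 common sites on a transcript of 2825 nt, or 3.19 per kb, and all of its 9 sites of any kind were common. Srrm1, a splicing coactivator, held 8 sites at 2.54 per kb and Ik, a spliceosome protein, 5 sites at 2.51 per kb. Gtf2f1, a subunit of the general transcription factor TFIIF, held 4 sites at 2.33 per kb. Tpr and Myh9 also stood among the 6 densest genes with at least 4 sites.

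Distances between common sites of 1 gene were measured on the spliced transcript, and no background of randomly placed sites was computed for them. Of all common sites 936 (26.2%, 24.8% to 27.7%) had a neighbour within 300 nt, 425 (11.9%) within 150 nt and 1396 (39.1%) within 600 nt. Over 1390 pairs of consecutive sites the median distance was 400 nt, with quartiles of 199 and 842 nt, and 557 pairs (40.1%) were within 300 nt. The shortest distance was 39 nt. The 230 pairs within 150 nt all lay in different exons, since peaks in 1 exon that overlap become 1 site. Of all pairs 115 (8.27%) lay in the same exon, 472 (34.0%) in adjacent exons and 803 (57.8%) farther apart. Reads were aligned without splicing, so whether neighbouring sites across a junction come from the same RNA molecules cannot be told.

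In the 163 genes with at least 4 common sites on 1 transcript, the median distance between neighbours was 0.480 of the distance that even spacing over the transcript would give, and it was below even spacing in 146 of them (89.6%). Positions placed without any order also give a median distance below even spacing, so a value below 1 is a description and not a sign of clustering by itself. Even spacing was also taken over the whole transcript with its UTRs. Only 1.29% of common sites lay in 5′ UTRs and 0.757% in 3′ UTRs, so long UTRs lower the ratio. The first and the last coding site of these genes enclosed a median of 64.9% of the coding sequence. At least 2 common sites in 1 exon occurred in 77 genes and at least 3 in 22 genes. The most were 6 in 1 exon of Apc, a scaffold of the WNT pathway, and of Srrm2, and 5 in 1 exon of Ankrd11, a chromatin regulator, and Apc and Ankrd11 were named for these values.

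By exon length common and other sites had close shares. Exons of at least 500 nt held 20.9% (19.4% to 22.4%) of coding common sites and 26.8% of the coding bases of the same transcripts, and the sites of 3, 2 and 1 libraries held 21.7%, 21.1% and 19.97% in such exons, where 28.0%, 27.4% and 25.4% of their coding bases lie. When the coding sequence was divided into 10 equal parts, the first held 11.997% of coding common sites (10.8% to 13.3%), the fifth 9.10% and the last 8.12% (7.16% to 9.20%). For the sites of 3 libraries these were 11.4%, 9.11% and 7.82%, and for those of 2 libraries 10.7%, 10.1% and 7.08%. The sites of 1 library held less in the first part, at 9.37% (8.35% to 10.5%), 11.2% in the fifth and 7.78% in the last.

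By function, the lists with the highest share of common-site genes were large cytoskeletal proteins, chaperones and nucleolar proteins. These lists were set with earlier results of these data known, and the shares are descriptions beside the 36.9% of all protein-coding genes with any site. Of 17 spectrins, filamins and actin-linked giants with any site 16 held a common site, with 141 common sites in all and a median coding length of 7627.5 nt over the genes with a common site. Of 10 HSP90 and HSP70 chaperones with any site 9 did, with 38 sites. Besides Hsp90b1 these were led by Hsp90aa1 and Hspa4 with 6 sites each and Hsp90ab1 with 5, and the strongest Hsp90ab1 site had a fold enrichment of 68.3 and 82.1 against 88.6 and 55.2.

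Of 23 genes for nucleolar ribosome biogenesis 19 held a common site, with 57 sites. Bms1, a GTPase of small-subunit assembly, held 8, and Ncl, which encodes nucleolin, held 7, with 66.1 and 61.4 against 101 and 71.8 at its strongest site. For cytoplasmic ribosomal proteins it was 34 of 57, with 44 sites and a median coding length of only 435 nt. Rpl4 held 3, the strongest with 67.7 and 68.2 against 61.8 and 85.2.

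Translation and RNA processing genes followed. Common sites occurred in 21 of 31 initiation factor genes with any site (56 sites), in 5 of 8 elongation and release factors (13 sites, of which 7 in Eef2, the translocase of the ribosome), and in 6 of 16 cytosolic tRNA synthetases and AIMP proteins (12 sites). They occurred in 21 of 29 SR and RS-domain splicing proteins (60 sites), in 13 of 19 hnRNP genes (33 sites, of which 8 in Hnrnpu) and in 21 of 37 DEAD and DEAH box helicases (40 sites). The list share of the tRNA synthetases was 37.5%, near the 36.9% of all genes, and those of the SR proteins and hnRNPs were 72.4% and 68.4%.

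Lists of chromatin and transcription regulators also held many common sites. Of 35 chromatin remodelling ATPases and partners with any site 21 held a common site, with 97 sites in all. After Chd4 they were led by Bptf, the reader subunit of NURF, and Chd2, with 10 sites each, and Atrx with 8. Of 21 trithorax and SET-domain methyltransferases 15 did, with 26 sites, of which Setd5 held 4. Of 17 Polycomb genes 8 did, among them Jarid2 with 4 sites and Suz12 and Ezh2, core subunits of PRC2, with 3 each. Of 17 transcription elongation factors 12 did, with 9 sites in Supt6 and 7 in the FACT subunit gene Supt16.

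In the PR-DUB complex and its partners, the complex that MBD5 and MBD6 join, only Bap1 of 7 genes with any site held a common site. The site had 13.9 and 7.62 with MBD5 against 7.56 and 14.2 with MBD6, so the proteins overlapped. Tet1, which oxidises 5-methylcytosine in DNA, held 5 common sites and the maintenance methyltransferase gene Dnmt1 held 4, and 4 of 9 genes for TET, DNA methylation and methyl-binding proteins held any. In the list of writers and readers of 5-methylcytosine in RNA, which also held Pspc1, it was 4 of 6. Pspc1, whose protein the paper describes as an RNA-binding partner of TET2, and the methyltransferase gene Nsun2 held 3 sites each.

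Genes of chromosome structure and transport completed the lists. Common sites occurred in 12 of 22 genes for SMC proteins, cohesin and condensin (34 sites, of which 6 in the cohesin gene Smc1a), in 5 of 11 MCM and topoisomerase genes (16 sites, 6 in Top2a), in 12 of 24 nucleoporin and transport receptor genes (36 sites, 18 in Tpr), in 11 of 23 kinesins (20 sites, 5 in Kif5b) and in 12 of 16 large ubiquitin ligases and deubiquitinases (37 sites). They occurred in 5 of 9 basement membrane genes (15 sites). Lamc1, which encodes laminin gamma 1, held 9 of these, and its strongest site had 76.1 and 88.96 with MBD5 but 72.9 and 27.7 with MBD6.

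In lists of housekeeping genes, common sites were found in 14 of 36 replication-dependent histone genes (16 sites), 9 of 16 proteasome subunit genes (15 sites), 16 of 30 nuclear-encoded respiratory chain genes (22 sites), 5 of 13 glycolytic genes (8 sites, 4 in Pkm) and 3 of 8 chaperonin genes (8 sites, 4 in Cct5). Histone genes are multicopy, so the copy is uncertain. The 3 embryonic stem cell markers with a common site were Tfcp2l1 (27.2 and 32.4 against 34.8 and 38.4), Zfp42 (17.9 and 29.6 against 40.1 and 40.9) and Sox2 (5.34 and 6.41 against 8.32 and 7.48). Of 1093 annotated olfactory receptor genes, which stem cells hardly use, 1 had a site and none a common site.

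Between the proteins, both Flag-MBD6 values of fold enrichment lay above both Flag-MBD5 values at 1987 common sites (55.7%) and below them at 373 (10.5%), and the groups overlapped at 1206. The median difference of mean log2 fold enrichment, Flag-MBD6 minus Flag-MBD5, was 0.41, with quartiles of 0.01 and 0.79. Between the libraries of 1 protein, the SD of the log2 difference per site was 0.45 for MBD5 and 0.44 for MBD6. This balance turned with the scale. When summit reads were divided by the estimated depth, the median difference was −0.33, Flag-MBD6 lay above at 584 sites (16.4%) and below at 2009 (56.3%). The general direction is therefore not given as a property of the proteins, and differences are described relative to the median of all common sites on both scales. Above on both scales were 572 sites and below on both 372.

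Coding sites lay above the median and snoRNA sites below it on both scales. Relative to all common sites the median log2 difference was 0.08 in coding sequence and −0.58 in snoRNA genes by fold enrichment, and 0.10 and −0.34 by depth-scaled reads. Of the snoRNA sites 60 of 175 had both Flag-MBD6 values below both Flag-MBD5 values of fold enrichment (34.3%, against 10.5% of all common sites) and 23 above. Sites in snRNA genes lay at −0.32 and −0.23, and sites in 3′ UTRs, of which there were 27, at −0.43 and −0.49.

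Gene lists differed in the same manner. Relative to all common sites, by fold enrichment and by depth-scaled reads, the median log2 difference was 0.43 and 0.50 for SMC, cohesin and condensin, 0.44 and 0.31 for Polycomb, 0.40 and 0.43 for trithorax and SET-domain genes, 0.38 and 0.38 for kinesins and 0.30 and 0.32 for chromatin remodelling. It was −0.61 and −0.54 for the spectrins and other giants, −0.63 and −0.56 for elongation and release factors, −0.49 and −0.54 for chaperonins and −0.45 and −0.37 for basement membrane genes. In the SMC list 30 of 34 sites had both Flag-MBD6 values of fold enrichment above both Flag-MBD5 values and 2 below. Among the giants 24 of 141 were above and 48 below. Of all common sites 55.7% were above and 10.5% below by fold enrichment, against 16.4% and 56.3% by depth-scaled reads. Sites of 1 gene share their transcript and its level, so sites are not independent, and differences in transcript level between the 2 cell lines were not measured.

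**Figure D5:**
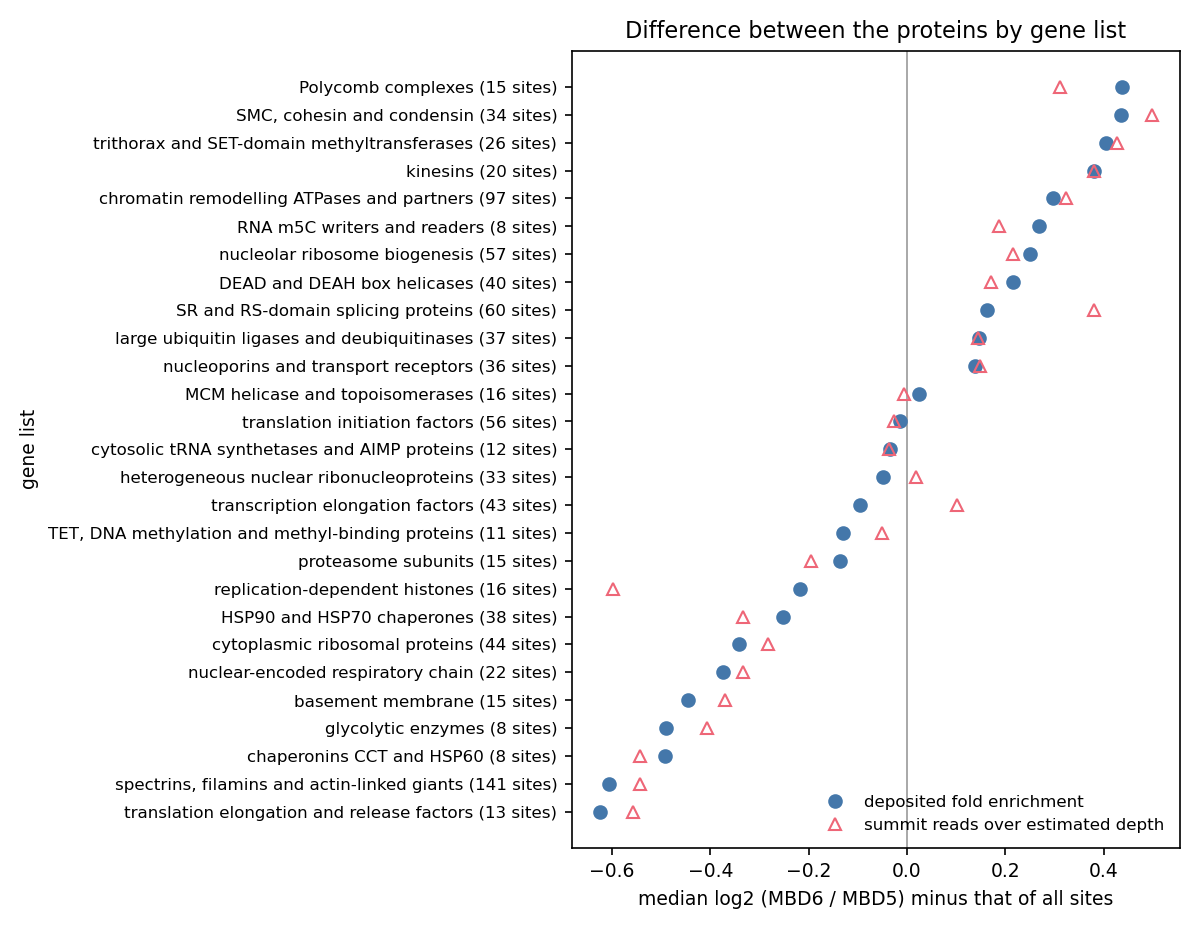
Median log2 ratio of Flag-MBD6 to Flag-MBD5 over the common sites of each gene list with at least 8 sites, less the median of all common sites, by deposited fold enrichment (filled circles) and by summit reads over estimated depth (open triangles). The Polycomb, trithorax, remodelling, cohesin and kinesin lists lie to the right on both scales and the giants, elongation factors, chaperonins and glycolytic enzymes to the left, while transcription elongation factors, hnRNPs and MCM genes change sides.

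The sites with the largest differences in favour of Flag-MBD6 were coding. At the site in exon 3 of Qser1 values were 8.77 and 10.3 with MBD5 against 36.7 and 46.5 with MBD6, a log2 difference of 2.12, from 10, 12, 55 and 73 summit reads. Mgea5, which encodes the O-GlcNAc hydrolase, had 6.83 and 8.45 against 37.3 and 27.9 in exon 9. A site in exon 9 of Chd2 had 9.33 and 7.98 against 30.9 and 39.3. At these sites the reads differed in the same direction on the depth scale, by 1.44, 1.52 and 1.24 on the log2 scale.

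A site in exon 4 of Ncl behaved otherwise. Its fold enrichment was 8.65 and 9.16 against 38.1 and 35.5, but summit reads were 96 and 89 with MBD5 against 157 and 162 with MBD6, a depth-scaled difference of −0.31. The background rates were 10.2 and 8.83 against 3.15 and 3.59, so the reads differed by less than the depth ratio while the local background was lower with Flag-MBD6.

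Among the sites in favour of Flag-MBD5, the largest difference was in exon 16 of Sptbn1, with 120 and 101 for MBD5 against 32.4 and 29.5 for MBD6, a log2 difference of −1.83. Summit reads were 149 and 143 against 142 and 157, and background rates 0.254 and 0.420 against 3.42 and 4.35. Snord93, a box C/D snoRNA, had 32.3 and 28.0 against 11.3 and 6.56, and the snoRNA gene Gm24463 had 24.9 and 24.4 against 8.76 and 10.1. The processed pseudogene Gm5844 had 19.9 and 17.4 against 5.07 and 6.56, and a site in the 3′ UTR of Eef2 had 10.8 and 5.92 against 2.57 and 2.84. On the depth scale the 5 differences were −1.06, −0.86, −0.87, −1.71 and −0.89 in the order given here, against −0.33 for the median common site.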

How the data were processed

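CLIP-seq peaks were analysed in the 4 CLIP libraries of a series of 8 samples. As the methods state, the authors trimmed, filtered and collapsed reads, removed rRNA reads, aligned the rest to mm10 with bowtie 1.0.0 (at most 3 mismatches and 10 matching places, 1 reported), split them by strand and called peaks with MACS2 (reads extended to 150 bp, at most 5 duplicates kept, q under 0.01). The deposited columns are a score, a fold enrichment ratio at the summit, and the −log10 p and −log10 q of the peak.

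Peaks of all libraries were merged on the same strand when they shared at least 1 bp. Within a site the peak with the highest fold enrichment stood for its library. Genes and classes came from GENCODE M21 on the same build, at 15 nt inside the 5′ end, with small RNA genes first among non-coding exons. Transcript positions used, per gene, the transcript whose exons held most of its sites. Sequences were read from the GENCODE transcripts. Summit reads and background rates were obtained by solving for both the deposited ratio and its p-value (100% of peaks), and depth from the lowest rate on each strand, times a genome size of 130000000 bp over 150 bp. These depths are estimates. Intervals are 95% Wilson intervals for counting error only, and no test was run. The computations were tested on simulated peaks. Python 3.11.15, numpy 2.4.6, scipy 1.17.1 and Biopython 1.88 were used.

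The members and the 32 gene lists were chosen with earlier results of these data known. Named by rule were the 8 best-ranked sites, the 5 sites with the largest difference in each direction among sites where the proteins did not overlap, the 12 genes with the most sites, the 6 genes with at least 4 sites and the most per kb, and up to 4 genes per list. Some sites chosen by this rule are not reported here. Alternatives covered the q and fold thresholds, equal numbers of peaks, overlap, strand, the position used, gene type, neighbour distance, the 5′ end used, depth scaling and leaving out each library.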

Additional observations from a re-analysis of the deposited data

How the results depend on the processing

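No paired analysis was possible because the results come from no test: each protein counts as 1 sample, so no pairs of replicates were formed. The number of common sites and of genes with a common site stayed within 1.5 times of the reported value under all alternatives run for them. With equal numbers of peaks per library, 24.6% of sites had a neighbour within 300 nt, A was at 36.3% of the first 30 nt (35.8% over all exonic sites in the reported setting) and both Flag-MBD6 libraries were higher at 62.9% of sites. With summit reads over depth the last share was 16.4%. With the gene and class read at the midpoint, 31.1% of genes had at least 2 sites and 55.6% of sites were coding, and at the summit 30.8% and 59.1%. With protein-coding genes alone, 37.9% of genes had at least 2 sites. Neighbours within 150 nt were found for 11.9% of sites and within 600 nt for 39.1%. With the 5′ end of the peak with the best −log10 p, G preceded 72.0% of sites (74.98% as reported over all exonic sites) and A was at 36.4%.

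Leaving out each library in turn gave 3690 to 4300 sites, 2115 to 2463 genes, 29.4% to 31.0% of genes with at least 2 sites, 26.5% to 28.5% of sites with a neighbour, 77.5% to 79.0% coding, 74.6% to 75.8% preceded by G, 36.0% to 36.4% of A and 64.2% to 66.2% of sites with higher Flag-MBD6 values. The share with higher Flag-MBD6 values needs fewer libraries to agree when a library is left out. It is thus a looser share than the 55.7% over all 4 libraries. The part of depth in the number of common sites was not tested apart from the protein. With equal numbers of peaks per library there were 2979 common sites.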
